A study of Homo sapiens with 12 samples.

Results

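Drug-treated NF1 knockout cells were compared with untreated control cells of T47D, an established human breast cancer line of the luminal, estrogen receptor-positive kind. The 6 libraries were taken by their labels: 3 of genotype NF1KO treated with BYL719 (alpelisib, an inhibitor of the alpha form of PI3K) and 3 of genotype CTRL given the vehicle DMSO. They are 6 of the series' 12 labelled samples, 11 of which have a column in the deposited count table. BYL719 was given at 3 µM, and drug and vehicle both for 48 h. Genotype and treatment differ together in this comparison, so it asks which expression programs stood at the untreated level, below it or above it in NF1-null cells under the drug. The CTRL BYL719 group (3 libraries) and the NF1KO DMSO group (2 libraries) supply the levels between these ends. The labels do not say how NF1 was disrupted, whether the knockout line is 1 clone, or whether replicates are separate cultures. A p-value here therefore measures only the spread between these libraries, and a difference between the lines cannot be put down to NF1 alone. Of the 27864 genes in the table, 16081 passed the filter on low counts and were tested.

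Neurofibromin, the product of NF1, speeds the hydrolysis of GTP by RAS and so turns it off, and active RAS drives the RAF, MEK and ERK kinases. ERK output includes genes for its own inhibitors, the Sprouty and SPRED proteins and the dual-specificity phosphatases. PI3K alpha makes the membrane lipid that recruits AKT, and AKT holds the FOXO factors out of the nucleus and feeds mTOR, which favours protein, lipid and nucleotide synthesis. In breast cancer cells both routes meet at cyclin D and the E2F factors, which open the way from G1 into S phase.

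Levels are given as CPM (counts scaled to library size), and a difference as log2 fold change ± SE from edgeR's quasi-likelihood test over 3 against 3 libraries, unless a group of 2 is named. A gene is called higher or lower where the Benjamini-Hochberg adjusted p over all genes was under 0.05. It is said to be held at the untreated level where the 95% interval of its log2 fold change lay wholly inside a 1.5-fold change either way (± 0.585), which a small called change can also meet. In the drug-treated knockout 5605 genes (34.9%) were called, 2888 (18%) higher and 2717 (16.9%) lower than in the untreated control. More than 2-fold apart were 735 higher (4.57%) and 459 lower (2.85%) genes. Held within 1.5-fold were 9142 genes (56.8%), 1895 (11.8%) of them called as well, and 3229 (20.1%) were neither called nor held. At 7778 genes (48.4%) the 3 and 3 libraries did not overlap. The median log2 fold change of all genes was -0.01.

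The single steps from the same fit are set beside these values. BYL719 in CTRL cells called 22.6% of genes higher and 21.8% lower, with 51.5% held. The knockout in DMSO called 9.99% higher and 10.3% lower, with 58% held. BYL719 in NF1KO cells called 10.3% higher and 8.47% lower, with 59.4% held, and NF1KO against CTRL under BYL719 called 20.8% higher and 19% lower, with 53.7% held. These contrasts share the CTRL DMSO or the NF1KO BYL719 libraries with the main one, so their values are not independent of it.

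The 6 libraries held 53837445 to 57171600 counts each. Ribosomal RNA genes took 8.7% to 10.9% of counts in CTRL DMSO and 10.7% to 12.1% in NF1KO BYL719. CTRL DMSO replicate 1 stood apart from its group, with 876 genes more than 1.5-fold above the mean of the rest of its group, against 297 and 407 genes for replicates 2 and 3. CTRL BYL719 replicate 1 stood apart in the same way, with 1139 genes against 356 and 374. Without CTRL DMSO replicate 1, 2456 genes were called higher and 2293 lower, of which 685 and 405 were more than 2-fold apart. Of the main calls 79.8% were kept. Values without that library are given below for some of the lists and genes. NF1, at chr17:31094977-31377675 of GRCh38, checks the labels: it was at 289, 209 and 250 CPM in CTRL DMSO and 0.891, 0.547 and 0.4 CPM in NF1KO BYL719. The groups lay far apart, and the level was 403-fold lower (log2 fold change -8.66 ± 0.26, adjusted p = 5.26e-10).

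The clearest activated group was ERK output. Of 22 tested genes of this list, 15 were higher and 3 lower, with a median log2 fold change of 1.13 and 11 genes more than 2-fold higher. Log2 fold changes in the list ran from -0.76 to 5.77, and 5 genes were held. The ETS factor ETV5, which ERK signalling induces, was at 0.189, 0.292 and 0.278 CPM in CTRL DMSO and at 9.63, 12 and 11.7 CPM in NF1KO BYL719. Every treated knockout library was above every control library, with 17.6 and 17.5 CPM in NF1KO DMSO and 0.102 to 0.223 CPM in CTRL BYL719. The log2 fold change was 5.45 ± 0.19 (adjusted p = 1.85e-09), a level 43.7-fold higher. SPRY4, a Sprouty inhibitor of the pathway, was at 0.137, 0.273 and 0.445 CPM in untreated controls and 11.2, 13.9 and 13 CPM in the treated knockout. Its groups did not overlap either, and the log2 fold change was 5.48 ± 0.22 (adjusted p = 5.63e-09). DUSP6, the phosphatase that removes phosphate from ERK in the cytoplasm, stood at 0.739, 0.802 and 1.32 CPM against 20.7, 23.8 and 20 CPM. DUSP6 was thus 22.6-fold higher (4.50 ± 0.19, adjusted p = 6.89e-09). DUSP4, a nuclear phosphatase of the same family, went from 5.93, 6.58 and 5.75 CPM to 74.1, 78.6 and 69.4 CPM, a 12.2-fold rise (3.60 ± 0.08, adjusted p = 7.22e-11).

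These genes were already high in the untreated knockout: over the list, 17 genes were higher and 1 lower in NF1KO DMSO than in CTRL DMSO (median 0.86), and 2 rose and 4 fell when BYL719 was added to NF1KO cells (median -0.21). In the NF1KO cells BYL719 lowered ETV5 by a log2 fold change of -0.66 and SPRY4 by -0.67, while DUSP6 was held within 1.5-fold (-0.08). PHLDA1, which was higher after BYL719 in both lines, was at 11.2, 10.4 and 11.1 CPM in untreated controls, 27.8, 25.7 and 26.1 CPM in CTRL BYL719, and 48.2, 40.9 and 34.2 CPM in NF1KO BYL719. The treated knockout was above both other groups, with a log2 fold change of 1.92 ± 0.12 against untreated control (adjusted p = 2.59e-07). EGR1, an immediate early factor, was not called: it was at 0.378, 0.383 and 0.483 against 0.402, 0.766 and 0.527 CPM, and the groups overlapped (0.44 ± 0.35, adjusted p = 0.351). DUSP5, EPHA4 and IER3 were held within 1.5-fold (0.34, -0.29 and -0.23), each of them called as well. ETV4, the third factor of the ETV group, was called higher too, but it overlaps DHX8 and had no counts in CTRL BYL719.

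**Figure D1:**
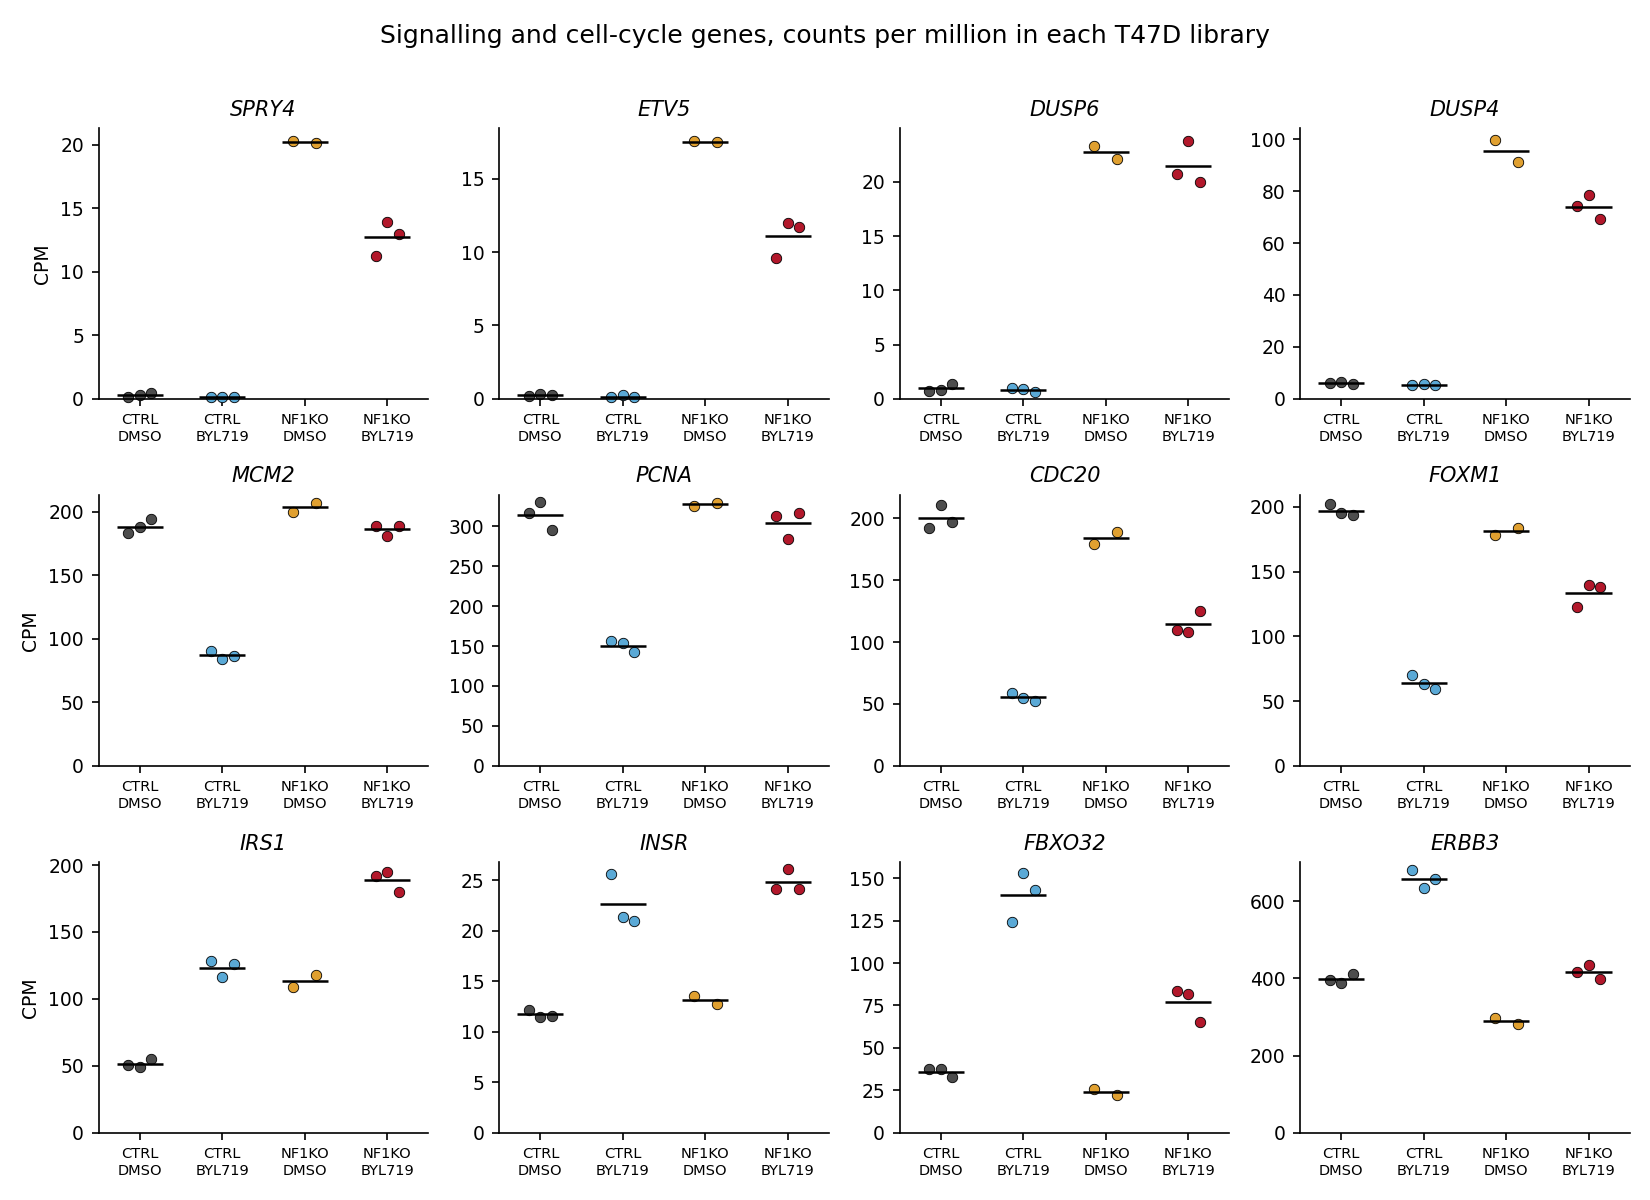
Levels of 12 signalling and cell cycle genes in the 11 libraries, in CPM on linear axes that start at 0. Points are libraries and the bar is the mean of a group. ERK feedback genes are high in both knockout groups, MCM2 and PCNA are low in CTRL BYL719 alone, and CDC20 and FOXM1 lie between the untreated and the treated control.

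Most of the pathway's own components were held. Among 18 RAS, RAF, MEK and ERK genes 15 were held, 2 were called higher and 2 lower, and the adaptor GRB2 was among those held (0.08). Not held were SHOC2, HRAS and KSR1. SHOC2, a scaffold for RAF activation, was at 370, 365 and 341 against 219, 181 and 173 CPM. These groups were well separated (-0.91 ± 0.09, adjusted p = 8e-06). HRAS fell by 0.63 on the log2 scale, although it overlaps LRRC56. KSR1, a scaffold for RAF and MEK, was higher, at 2.1, 1.55 and 1.71 against 2.78, 3.7 and 2.96 CPM (0.82 ± 0.17, adjusted p = 0.0034). Of 11 RAS GTPase-activating genes 3 were lower: NF1 itself, DAB2IP (-0.54) and RASAL2 (-0.53). RASAL1 was higher (0.99), and RASA1, RASA2 and RASA3 were held (-0.03, -0.08 and -0.27). So 36.4% of these 11 genes were called, near the 34.9% of all genes.

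Of 23 tested FOXO targets and PI3K feedback genes, 13 were higher and 1 lower, with 12 held and a median log2 fold change of 0.32. BYL719 alone raised 15 of the 23 in CTRL cells and 14 in NF1KO cells (medians 0.58 and 0.49), and the knockout in DMSO had 2 higher and 6 lower. IRS1, the adaptor that links insulin and IGF receptors to PI3K, was at 50.4, 49.4 and 55.1 CPM in untreated controls. It was at 128, 116 and 126 CPM in CTRL BYL719, 109 and 118 CPM in NF1KO DMSO, and 192, 195 and 180 CPM in NF1KO BYL719. IRS1 was thus higher after either step and highest after both (1.87 ± 0.07, adjusted p = 3.41e-09, 3.66-fold). IRS2, its relative, was at 3.42, 3.57 and 3.75 against 9.56, 11.8 and 9.89 CPM, again without overlap (1.54 ± 0.10, adjusted p = 4.41e-07). INSR, the insulin receptor, was at 12.2, 11.5 and 11.6 against 24.2, 26.1 and 24.2 CPM (1.08 ± 0.09, adjusted p = 1.94e-06). Treated CTRL cells had 25.6, 21.4 and 21 CPM of INSR, so the treated lines overlapped.

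Against the untreated control, other members of the group rose less in the treated knockout than in the treated control. FBXO32, a ubiquitin ligase and classical FOXO target, was at 37.5, 37.5 and 32.9 CPM untreated, 124, 153 and 143 CPM in CTRL BYL719 and 83.6, 81.5 and 65.2 CPM in NF1KO BYL719. It was 2.13-fold above the untreated control (1.09 ± 0.11) and, tested directly, below the treated control by 0.87 on the log2 scale. ERBB3, the HER family receptor that rises when PI3K and AKT are inhibited, was at 396, 389 and 412 CPM untreated and 418, 436 and 399 CPM in the treated knockout. The groups overlapped and ERBB3 was held (0.06 ± 0.06), whereas CTRL BYL719 stood at 682, 634 and 659 CPM. NF1KO DMSO had 298 and 283 CPM, so BYL719 raised ERBB3 in NF1KO cells too (0.52, against 0.72 in CTRL cells). TXNIP, a thioredoxin inhibitor, was held and called lower (-0.37), and KLF6 was held and called higher (0.25). TXNIP was no longer held without CTRL DMSO replicate 1 or without NF1KO BYL719 replicate 1.

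Most PI3K, AKT and mTOR genes were held, 19 of 26, with 5 higher and 5 lower. The share called, 38.5%, was near the 34.9% of all genes, and 73.1% were held, against 56.8%. PIK3R1, the regulatory subunit that stabilises and restrains PI3K alpha, was the largest rise, at 88.7, 77 and 83.7 against 337, 324 and 274 CPM. The difference, 3.75-fold (1.91 ± 0.09, adjusted p = 3.11e-08), was called in NF1KO DMSO too (276 and 270 CPM), whereas CTRL BYL719 (63.5 to 75.9 CPM) was below the untreated control. DEPTOR, an inhibitor of mTOR, was higher (1.11 ± 0.10), and so was the translation repressor EIF4EBP1 (0.56). AKT1 was called lower and held (-0.36), PIK3CB (0.06) and PDPK1 (0.03) were held, and PIK3CD, which overlaps CLSTN1, was lower (-0.86).

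Receptor tyrosine kinases leaned the other way: of 19 tested, 10 were lower and 4 higher (median -0.25). MET, the receptor for hepatocyte growth factor, was at 43, 42.7 and 44.2 CPM against 18.2, 18.2 and 18.3 CPM. No library overlapped, and MET was 2.38-fold lower (-1.25 ± 0.06, adjusted p = 3.37e-08). EGFR (-1.21) and FGFR3 (-1.22) were lower by about as much, and FGFR1 was higher, at 37.8, 32.5 and 33.9 against 59.1, 64.6 and 66.5 CPM (0.87 ± 0.08). EPHA1 and DDR1 were held (-0.04 and -0.25).

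Cell cycle genes divided by phase. S phase genes stood at the untreated level while many mitotic genes stopped short of it. As chosen examples, 4 RefSeq promoter windows of GRCh38.p14 are printed, each the 250 bases before the annotated start. They are not a typical sample of either group, and the shares over each group follow them. CDC20 and PLK1 act in mitosis, CDT1 and MCM3 in the loading of the replicative helicase, of which MCM3 is a subunit. CDC20 lies at chr1:43358731-43358980, PLK1 at chr16:23678639-23678888 and CDT1 at chr16:88803539-88803788, on the forward strand, and MCM3 at chr6:52284743-52284992 on the reverse strand. Capitals mark TTTGAA (the cell cycle homology region, CHR), CCAAT, and the E2F forms TTCCCGC and TTGGCGC, on either strand.
CDC20: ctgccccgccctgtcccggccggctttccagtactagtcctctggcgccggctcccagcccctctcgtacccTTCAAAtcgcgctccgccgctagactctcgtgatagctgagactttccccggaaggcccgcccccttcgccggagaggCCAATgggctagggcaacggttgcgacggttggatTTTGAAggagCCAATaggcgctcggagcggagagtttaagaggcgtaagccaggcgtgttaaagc
PLK1: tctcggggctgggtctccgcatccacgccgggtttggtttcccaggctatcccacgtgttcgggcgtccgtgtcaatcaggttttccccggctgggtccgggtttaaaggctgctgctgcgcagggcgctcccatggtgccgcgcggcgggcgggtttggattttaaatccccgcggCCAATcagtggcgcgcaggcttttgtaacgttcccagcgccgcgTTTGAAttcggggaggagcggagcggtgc
CDT1: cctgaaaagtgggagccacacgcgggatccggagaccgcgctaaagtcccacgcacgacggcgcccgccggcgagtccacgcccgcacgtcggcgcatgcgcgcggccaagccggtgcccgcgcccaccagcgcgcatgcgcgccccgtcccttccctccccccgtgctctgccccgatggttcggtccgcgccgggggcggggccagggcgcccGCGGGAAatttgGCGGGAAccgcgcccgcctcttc
MCM3: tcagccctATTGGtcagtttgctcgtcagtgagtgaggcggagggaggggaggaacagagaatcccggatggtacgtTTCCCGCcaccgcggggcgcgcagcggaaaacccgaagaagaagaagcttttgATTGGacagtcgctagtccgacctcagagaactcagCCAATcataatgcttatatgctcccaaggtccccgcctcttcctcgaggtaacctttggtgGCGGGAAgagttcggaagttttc

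TTTGAA occurred in 13 of the 26 G2/M promoters with an entry (50%) and in 1 of 29 S phase promoters (3.45%), against 8.63% of promoters of tested genes and 13.6% of all 27305 promoters. TTCCCGC occurred in 14 of 29 S phase promoters (48.3%) and 2 of 26 G2/M promoters (7.69%), against 8.47% and 5.59%. CCAAT was in 21 of 26 (80.8%) and 16 of 29 (55.2%), against 35.4% and 33%, and TTGGCGC in 4 of 29 S phase promoters (13.8%) against 4.01% and 2.63%. Both strands were searched, and the complement of CCAAT ends in letters that begin TTGGCGC, so matches of these can overlap. In CDC20 TTTGAA lies 65 to 60 bases before the start, and its complement TTCAAA 178 to 173 bases before it. CCAAT lies there at 100 to 96 and 55 to 51 bases before the start. In CDT1 the E2F form TTCCCGC occurs on the opposite strand at 35 to 29 and 23 to 17 bases before the start. A match describes the letters of the window and does not show a bound site.

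Of 32 S phase and replication genes none was higher, 5 were lower and 29 were held, with a median of -0.09. Thus 15.6% were called, against 34.9% of all genes, and 90.6% were held, against 56.8%. The same 32 genes were all lower after BYL719 in CTRL cells (median -1.16), 4 fell after BYL719 in NF1KO cells (median -0.15), and all 32 were higher in NF1KO than in CTRL cells under the drug (median 1.06). MCM2, a subunit of the replicative helicase, was at 183, 188 and 194 CPM in untreated controls and 189, 181 and 189 CPM in the treated knockout. These libraries overlapped and MCM2 was held (-0.02 ± 0.06), while CTRL BYL719 stood at 90.1, 84 and 86.8 CPM. PCNA, the sliding clamp of the polymerases, was at 317, 330 and 295 against 313, 284 and 317 CPM and was held as well (-0.04 ± 0.07). CDT1, the licensing factor, was at 26.6, 31.6 and 32.4 CPM untreated and 26.7, 32.7 and 34.9 CPM in the treated knockout. CDT1 was held (0.06 ± 0.10), and CTRL BYL719 had 10.4 to 11.7 CPM of it. MCM3 was held too, at 261, 235 and 230 against 231, 226 and 230 CPM (-0.08 ± 0.07).

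The exception with the largest difference was MCM7, another helicase subunit, at 262, 246 and 248 against 159, 148 and 156 CPM (-0.71 ± 0.08, adjusted p = 2.46e-05). MCM7 was lower in NF1KO DMSO already, at 182 and 184 CPM, and it lies in a stretch of chromosome 7 where 120 of 191 tested genes were lower in the treated knockout. MCM10 was lower (-0.45), and RRM1 (-0.22), RFC4 (-0.23) and CDC6 (-0.22) were called lower and held. Without CTRL DMSO replicate 1 the list had 3 lower and 30 held genes. The lower count was also 3 without NF1KO BYL719 replicate 1 or 3, and 2 without CTRL DMSO replicate 2 or NF1KO BYL719 replicate 2. RFC4, CDC6 and MCM10 lost their calls without CTRL DMSO replicate 1, and also in 3 other fits each that left out 1 library. RRM1 lost its call without CTRL DMSO replicate 2. Among 23 G1 cyclins, CDKs, inhibitors and E2F factors 3 were higher, 4 lower and 17 held, against 16 lower after BYL719 in CTRL cells. Of these 23 genes 30.4% were called and 73.9% held, against 34.9% and 56.8% of all genes. The count of 4 lower genes was 2 without CTRL DMSO replicate 1 or any 1 NF1KO BYL719 library. CDK2 (-0.13), TFDP1 (0.02) and CCND3 (-0.04) were held. CCND1, cyclin D1 and a meeting point of the ERK and PI3K routes, was at 214, 199 and 233 against 261, 311 and 284 CPM. It lay above every control library (0.41 ± 0.08, adjusted p = 0.00276), and CDKN1A, the CDK inhibitor p21, was higher too, at 15.5, 20.5 and 20.7 against 40.8, 42.4 and 44.9 CPM (1.18 ± 0.12).

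**Figure D2:**
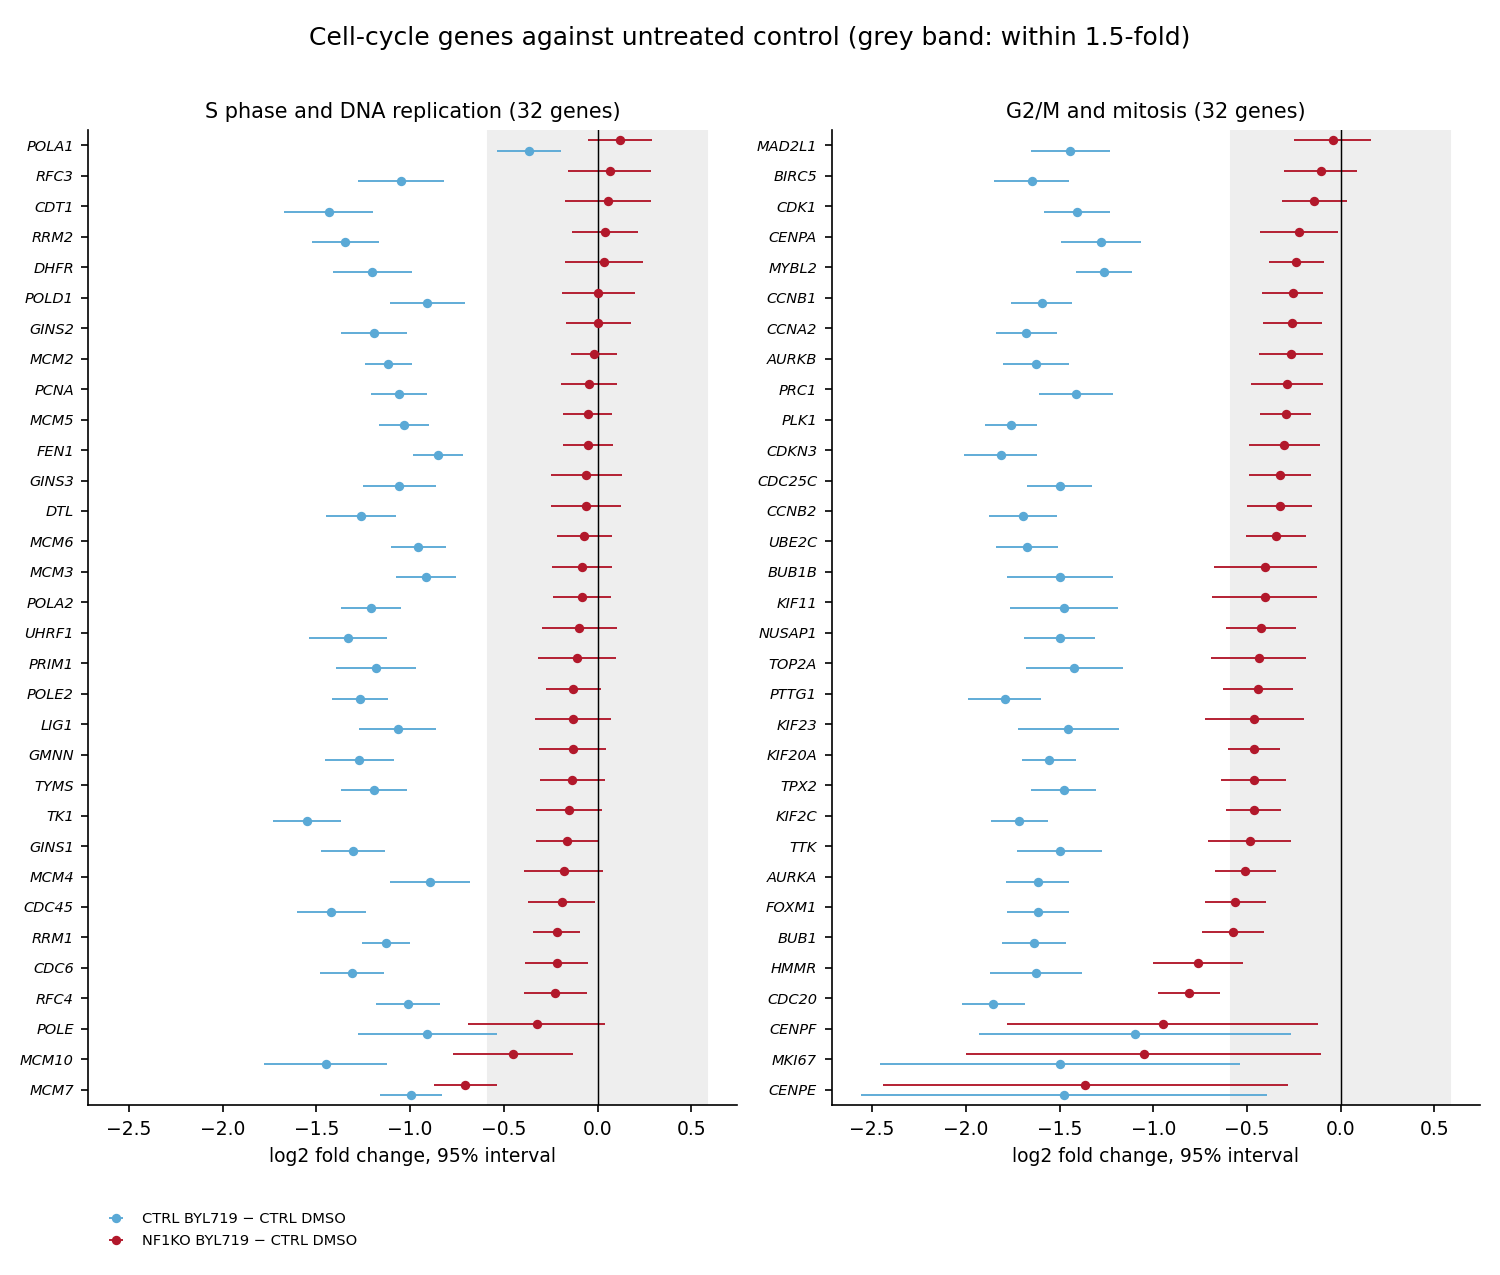
Log2 fold change with 95% interval of each S phase and each G2/M gene, for NF1KO BYL719 and for CTRL BYL719, both against CTRL DMSO. The grey band spans 1.5-fold either way. S phase genes of the treated knockout lie mostly inside the band (29 of 32 by their whole interval) and G2/M genes mostly to its lower side, while both groups lie far below it in the treated control.

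Of 32 G2/M and mitosis genes 25 were lower, none was higher and 14 were held, with a median of -0.42. After BYL719 in CTRL cells all 32 were lower (median -1.53), and 15 fell after BYL719 in NF1KO cells (median -0.29). The treated knockout thus lay between the untreated and the treated control, with 29 of the 32 higher than in CTRL BYL719 (median 1.09). CDC20, an activator of the anaphase-promoting complex, was at 192, 211 and 197 CPM in untreated controls, 59.2, 54.8 and 52 CPM in CTRL BYL719 and 110, 108 and 125 CPM in NF1KO BYL719. The 3 groups did not overlap, and CDC20 was 1.75-fold below the untreated control (-0.81 ± 0.08, adjusted p = 7.71e-06). FOXM1, a transcription factor of mitotic genes that overlaps RHNO1, was at 202, 195 and 194 against 123, 140 and 138 CPM (-0.56 ± 0.07, adjusted p = 0.000122). BUB1, a spindle checkpoint kinase, was at 136, 132 and 130 against 84.3, 89.9 and 92.1 CPM (-0.58 ± 0.08). Both were below every untreated library. The mitotic kinase gene PLK1 was at 128, 142 and 140 against 108, 110 and 117 CPM, called lower yet held (-0.29 ± 0.06), with 39.3 to 41.3 CPM in CTRL BYL719.

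CENPE, CENPF and MKI67 were not called. CENPE, a kinetochore motor, was at 129, 43.9 and 41.7 CPM in CTRL DMSO and 28.5, 30.9 and 24.2 CPM in NF1KO BYL719 (-1.36 ± 0.50, adjusted p = 0.0505). In each of the 3 genes the highest value was that of CTRL DMSO replicate 1, and no library of the groups overlapped. Without that library 22 of the list were lower and 16 held. Of 20 homologous recombination and Fanconi genes 4 were lower and 14 held (median -0.20), against 19 lower after BYL719 in CTRL cells. In this list 20% were called and 70% held, against 34.9% and 56.8% of all genes. BARD1 and CHEK2 were held (-0.03 each), and RAD54L, which overlaps LRRC41, was lower (-0.73 ± 0.08). Without CTRL DMSO replicate 1 or without NF1KO BYL719 replicate 1, 2 of the 20 were lower.

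Both chains of a large amino acid transporter were lower. SLC7A5, the large neutral amino acid transporter LAT1, was at 1720, 1690 and 1600 CPM in untreated controls, 949, 973 and 948 CPM in CTRL BYL719, 813 and 824 CPM in NF1KO DMSO and 450, 414 and 426 CPM in NF1KO BYL719. It was lower after either step and lowest after both, 3.88-fold below the untreated control (-1.96 ± 0.06, adjusted p = 7.94e-10). SLC3A2, its heavy chain partner, followed the same order, with 515, 548 and 500 CPM at one end and 253, 226 and 248 CPM at the other (-1.11 ± 0.07, adjusted p = 2.13e-07). The wider list of amino acid supply and stress response genes was mixed, with 3 higher, 8 lower and 16 held of 24 and a median of 0.01. PHGDH, the first enzyme of serine synthesis, was lower (-0.54), and the folate enzyme MTHFD2 was held (0.02). In DMSO the knockout had 13 of the 24 higher, and BYL719 lowered 15 of them in NF1KO cells. All 18 aminoacyl-tRNA synthetase genes were held (median -0.13). Of these 4 were called lower, and 9 were higher in NF1KO DMSO than in CTRL DMSO. The count of 4 was 7 without CTRL DMSO replicate 3 and 2 without any other of the 6 libraries.

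Glycolysis genes leaned below the untreated level, with 11 of 19 tested lower and 1 higher (median -0.28). The shift was mostly small, as 11 were held (57.9%, against 56.8% of all genes). GPI, which converts glucose 6-phosphate to fructose 6-phosphate, was at 393, 412 and 414 against 234, 249 and 252 CPM. CTRL BYL719, at 219, 236 and 240 CPM, overlapped the treated knockout, and GPI was 1.66-fold below the untreated control (-0.73 ± 0.06, adjusted p = 3.38e-06). LDHA, which makes lactate, was lower by a log2 fold change of -0.66 and GAPDH by -0.61. HK1, a hexokinase, was held (-0.08). Of 20 hypoxia-responsive genes 11 were lower and 3 higher (median -0.36). More than 2-fold lower were 4 of them: LOX (-2.84), which overlaps SRFBP1, CA9 (-2.13), ADM (-1.53) and NDRG1 (-1.45). LOX, CA9 and ADM were low in both groups, with means of 1.39, 1.74 and 2.13 against 0.193, 0.395 and 0.734 CPM. NDRG1 had means of 43.1 against 15.8 CPM. PDK1, the kinase that restrains pyruvate dehydrogenase, was lower too (-0.68). PFKFB3, a glycolytic activator, was higher, at 190, 207 and 220 against 395, 453 and 412 CPM (1.03 ± 0.09). VEGFA, not chosen by the naming rule, was held (0.01). In the pentose phosphate pathway 5 of 9 genes were lower and 7 held. The count of 5 was 3 without CTRL DMSO replicate 2 or 3 or NF1KO BYL719 replicate 1 or 2. TKT, transketolase, was lower by a log2 fold change of -0.52.

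Lipid synthesis genes were lower in part. SCD, the desaturase that makes monounsaturated fatty acids, was at 1250, 1330 and 1480 against 672, 754 and 695 CPM. All treated knockout libraries were below the controls (-0.93 ± 0.09, adjusted p = 6.08e-06), and CTRL BYL719 overlapped them at 662 to 764 CPM. Of 16 fatty acid synthesis genes 7 were lower, 1 higher and 6 held. FADS2, which overlaps FADS1, was lower (-0.91), as was ACLY, the source of cytosolic acetyl-CoA (-0.53), while ELOVL6 was held and called higher (0.22). Of 23 tested cholesterol genes 14 were lower and 16 held (median -0.27), with 8 lower when CTRL DMSO replicate 3 was left out. STARD4, a sterol carrier, was lower (-0.86), and SQLE, squalene epoxidase, was held (-0.07). Respiratory chain genes were mostly held, 36 of 46, with 14 called lower (median -0.16), against 23 lower after BYL719 in CTRL cells. The count of 14 was 7 without CTRL DMSO replicate 2 or 3 or NF1KO BYL719 replicate 1, and 6 without NF1KO BYL719 replicate 2. SDHA of complex II was at 336, 349 and 355 against 260, 261 and 271 CPM, called lower and held (-0.39 ± 0.06). COX6C was the 1 gene of the list that was higher (0.66).

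NRF2 targets and glutathione genes had 12 lower and 1 higher of 23 tested, with 8 held and a median of -0.41. PIR, pirin, was at 67.5, 70.7 and 64.7 CPM untreated, 17.9, 21.2 and 17.8 CPM in CTRL BYL719 and 29.1, 25.8 and 31.1 CPM in the treated knockout. It stood between the treated and the untreated control (-1.24 ± 0.09, adjusted p = 8.53e-07), although it shares bases with the readthrough PIR-FIGF. GSR, glutathione reductase, was at 189, 192 and 189 against 106, 99.8 and 98.8 CPM, and here the treated knockout was below CTRL BYL719 (142 to 176 CPM) as well (-0.90 ± 0.08, adjusted p = 3.25e-06). HMOX1, heme oxygenase, was at 12, 14.2 and 13 against 7.08, 6.31 and 7.11 CPM (-0.93 ± 0.09). TXNRD1, thioredoxin reductase, was raised by BYL719 in CTRL cells (412, 459 and 380 CPM) and lower in the treated knockout (187, 169 and 171 CPM) than in the untreated control (267, 266 and 241 CPM). That difference was -0.55 ± 0.08 (adjusted p = 0.000213). NFE2L2, the gene of NRF2, was held (0.08), as were GSS (-0.12) and SRXN1 (0.01). Of 17 peroxide and superoxide genes 13 were held and 5 were lower, among them PRDX1 (-0.44) and GPX3 (-0.63). In this list 35.3% were called, near the 34.9% of all genes, and 76.5% were held, against 56.8%.

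**Figure D3:**
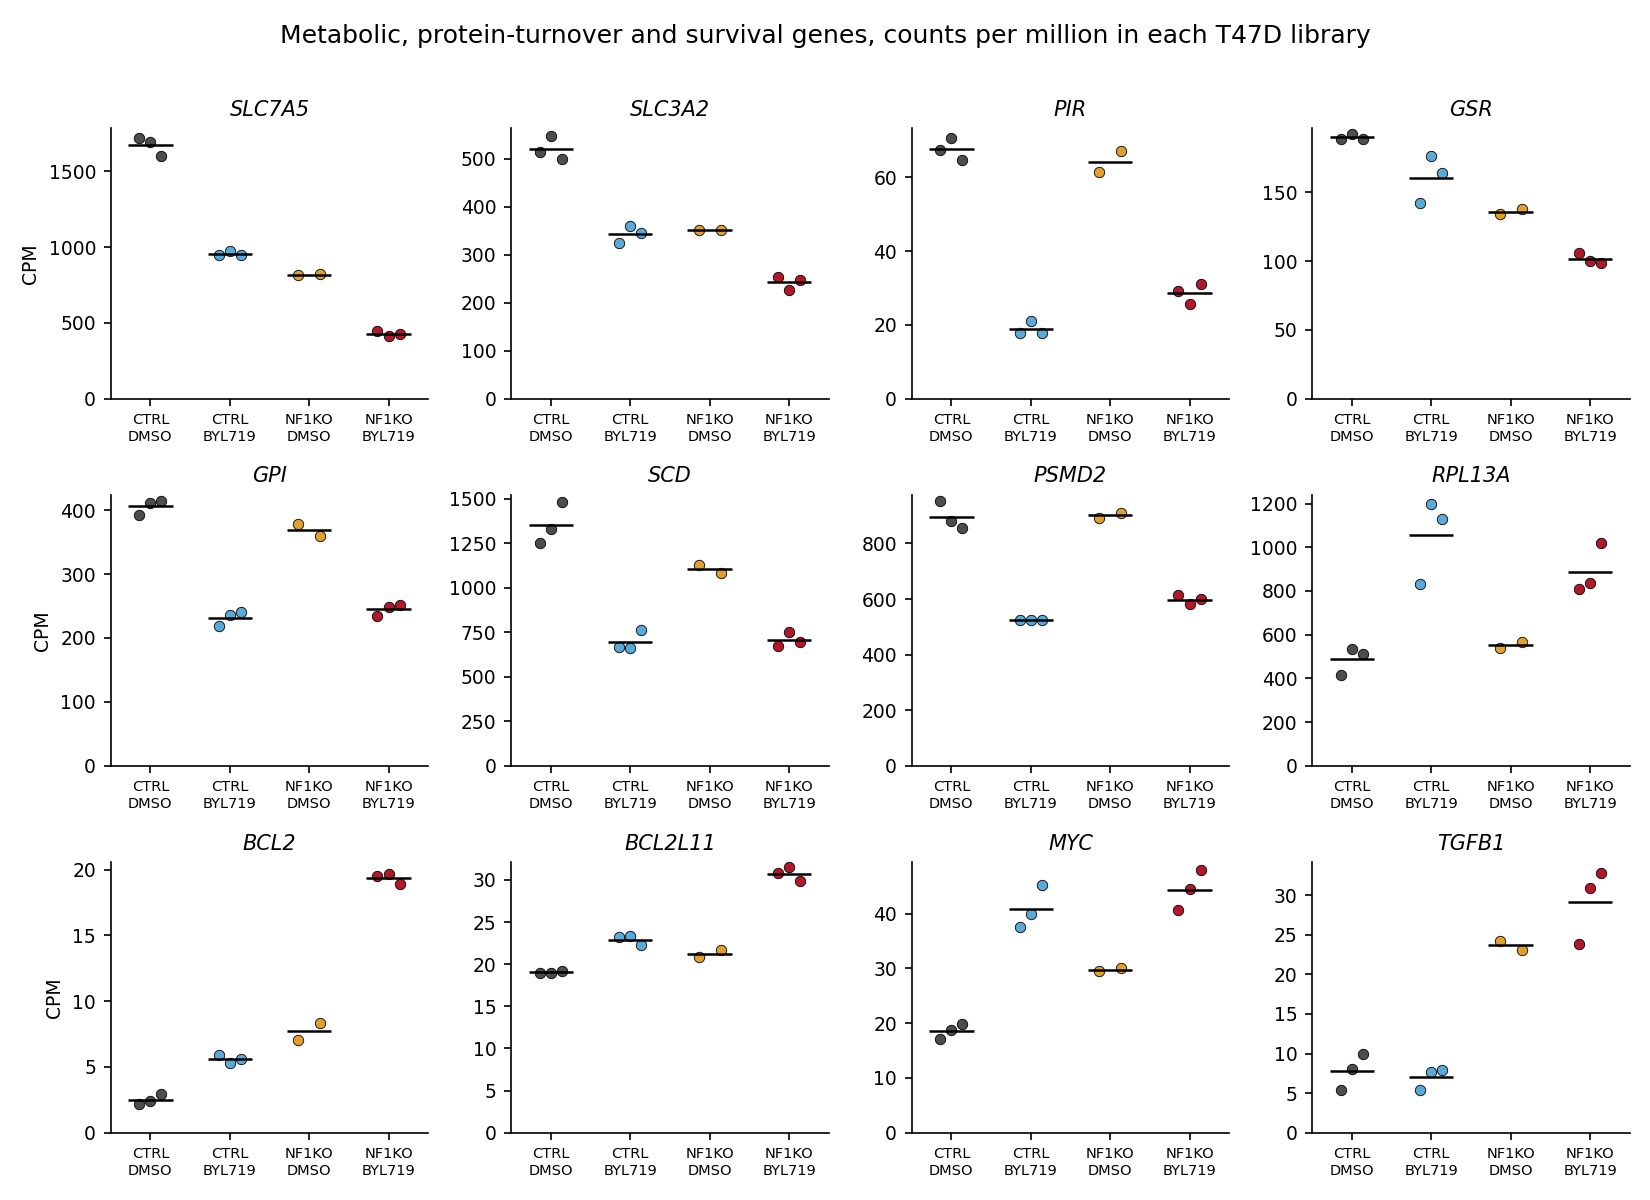
Levels of 12 genes of metabolism, redox, protein turnover, survival and growth factor signalling in the 11 libraries, in CPM on linear axes that start at 0. Points are libraries and the bar is the group mean. SLC7A5 and SLC3A2 step down with each change, GPI, SCD and PSMD2 reach similar levels in both treated groups, and BCL2 steps up with each change.

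Among BCL2 family and apoptosis genes 7 of 18 tested were higher and 1 lower. BCL2, the survival protein that gives the family its name, was at 2.15, 2.44 and 2.91 CPM untreated, 5.89, 5.34 and 5.63 CPM in CTRL BYL719, 7.07 and 8.37 CPM in NF1KO DMSO and 19.5, 19.7 and 18.9 CPM in NF1KO BYL719. Each group was separate, and the treated knockout was 7.75-fold above the untreated control (2.95 ± 0.12, adjusted p = 4.75e-09). BCL2L11, the death-promoting BIM, was at 18.9, 19 and 19.2 against 30.8, 31.5 and 29.9 CPM (0.69 ± 0.06, adjusted p = 3.6e-06). BBC3, PUMA, was higher too (1.16), BIK was lower (-0.99), and BAX was held (-0.08). In the MYC network 5 of 13 genes were higher and 1 lower. MYC was at 17.1, 18.7 and 19.8 against 40.7, 44.5 and 47.9 CPM (1.26 ± 0.09, adjusted p = 7.5e-07), and MXD1, a MYC antagonist, was higher (1.04).

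Genes of the translation machinery split. Of 59 cytosolic ribosomal protein genes 36 were higher, none was lower and 16 were held (median 0.41), against 52 higher after BYL719 in CTRL cells (median 0.52) and 9 in NF1KO cells (median 0.25). RPL13A was at 416, 533 and 511 against 809, 836 and 1020 CPM (0.87 ± 0.14, adjusted p = 0.000528). Without CTRL DMSO replicate 1, 18 were higher, and without NF1KO BYL719 replicate 3, 14 were. These genes have many processed copies in the genome, so their counts are uncertain, and the share of ribosomal RNA counts was as given above; its part in the result was not tested. Ribosome biogenesis genes were held, 25 of 30, with PES1 (0.05) and FBL (0.11) as examples.

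Proteasome subunits were lower as a small, wide shift: 21 of 31 were lower, none was higher and 25 were held (median -0.31). BYL719 lowered 28 of the 31 in each line (medians -0.50 and -0.45), and 1 differed in the knockout in DMSO. PSMD2, a subunit of the base of the regulatory particle, was at 953, 881 and 856 against 614, 581 and 599 CPM. The groups did not overlap (-0.58 ± 0.06, adjusted p = 1.85e-05), and PSMD11, a lid subunit, was lower by a log2 fold change of -0.52. Lysosome and autophagy genes had 11 of 28 tested higher and 4 lower, with 18 held. CTSB, cathepsin B, was at 289, 328 and 328 against 500, 515 and 548 CPM (0.73 ± 0.09, adjusted p = 5.74e-05). MAP1LC3B, the LC3 protein of autophagosomes, was higher (0.45), and BECN1 was held (0.06).

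**Figure D4:**
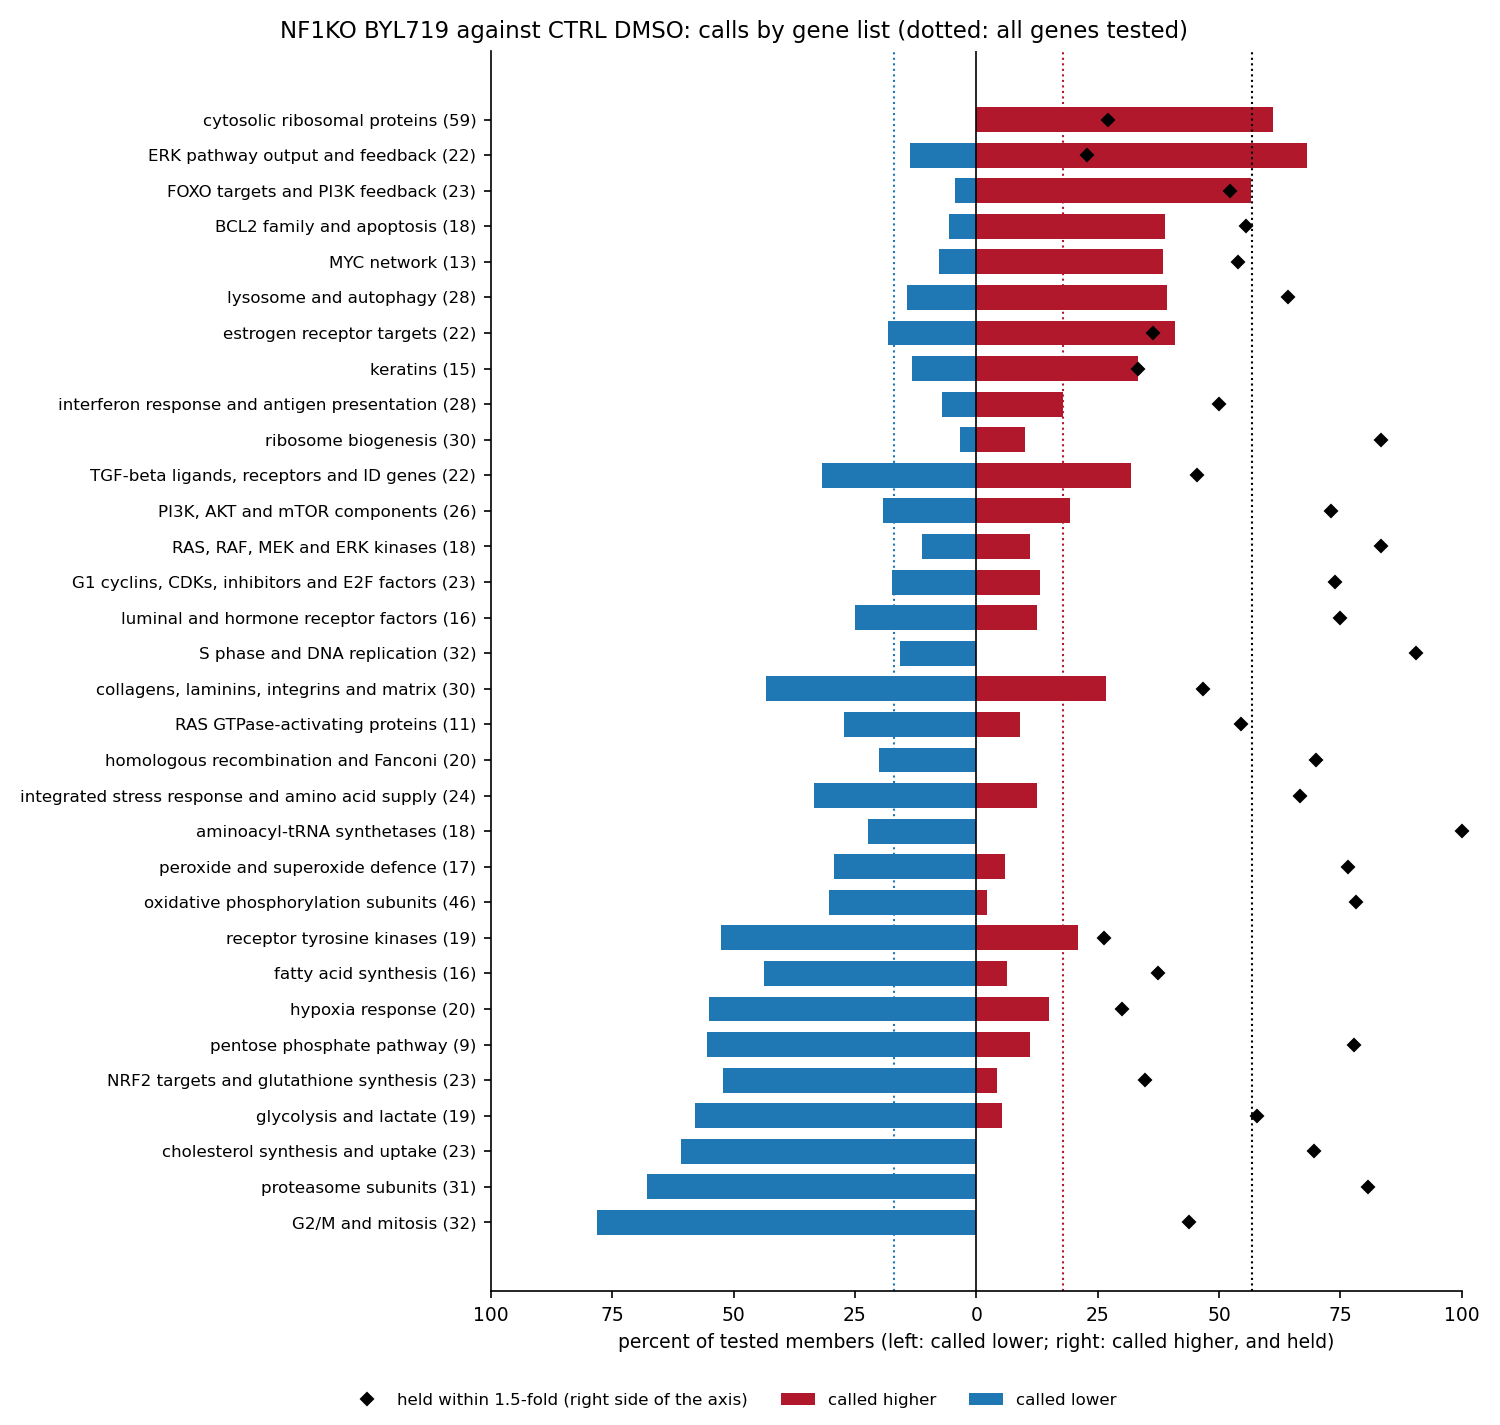
Share of each gene list that was called higher (right, red) or lower (left, blue) in NF1KO BYL719 against CTRL DMSO, in percent of tested members, with diamonds for the share held within 1.5-fold. Dotted lines give the same over all tested genes (18% higher, 16.9% lower, 56.8% held). ERK output has the highest share called higher and G2/M genes the highest share called lower, while S phase genes and tRNA synthetases are mostly held.

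Luminal identity was held for the most part. Of 16 luminal and hormone receptor factors 12 were held, 2 higher and 4 lower. The share called, 37.5%, was near the 34.9% of all genes, and 75% were held, against 56.8%. ESR1, the estrogen receptor, was at 350, 299 and 319 CPM untreated, 181 and 181 CPM in NF1KO DMSO and 269, 251 and 239 CPM in NF1KO BYL719. The treated knockout was below the untreated control and above the untreated knockout; ESR1 was called lower and held (-0.35 ± 0.08, adjusted p = 0.00409). FOXA1, a pioneer factor of the receptor, was called lower and held (-0.33), GATA3 was higher (0.50), and the adhesion genes CDH1 (0.09) and EPCAM (0.02) were held. Of 22 estrogen receptor targets 9 were higher and 4 lower (median 0.18). MYB was at 35.9, 34.5 and 36.5 against 61.8, 67.7 and 69.7 CPM (0.90 ± 0.08, adjusted p = 4.34e-06), AREG, an EGF receptor ligand, was higher (1.16), and SIAH2 was lower (-0.70). PGR, the progesterone receptor, was higher (0.38) but lost its call when CTRL DMSO replicate 2, NF1KO BYL719 replicate 1 or NF1KO BYL719 replicate 2 was left out.

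Summed levels of 10 luminal epithelial markers were 10400 to 12300 CPM in CTRL DMSO and 10800 to 11900 CPM in NF1KO BYL719. Markers of other cell types were low: the 10 basal and mesenchymal markers summed to 4.69 to 5.54 CPM untreated and 5.75 to 7.02 CPM in the treated knockout, with 6 of them under 1 CPM and 1 at 0 in all 6 libraries. TWIST1 and TP63 were the 2 of this list that were higher (4.95 and 1.94), both at low levels. Their means were 0.0422 and 0.189 CPM in CTRL DMSO, 1.28 and 0.823 CPM in NF1KO DMSO and 1.36 and 0.738 CPM in NF1KO BYL719. Neither was called for BYL719 in NF1KO cells. The 8 fibroblast markers summed to 49.8 to 55.4 against 16.8 to 21.3 CPM, nearly all of it COL1A1, with the other 7 under 1 CPM and 2 of these at 0. The 8 leukocyte markers summed to 2.43 to 2.59 against 2.19 to 2.73 CPM and the 6 endothelial markers to 0.412 to 0.483 against 0.657 to 1.07 CPM. In these lists 6 leukocyte markers (2 at 0) and all 6 endothelial markers (1 at 0) stayed under 1 CPM in the 6 libraries, and their part in any result was not tested. PECAM1 had no counts in CTRL DMSO and was at 0.437, 0.511 and 0.709 CPM in NF1KO BYL719. In bulk RNA, fewer cells of a type and less RNA per cell cannot be told apart.

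Secreted factors and matrix genes moved in both directions. In the TGF-beta and ID list 7 of 22 tested were higher and 7 lower. TGFB1 was at 5.41, 8.07 and 9.97 against 23.8, 30.9 and 32.8 CPM (1.90 ± 0.20, adjusted p = 2.21e-05). TGFB2, which overlaps TGFB2-OT1, was at 7.99, 7.45 and 7.13 CPM untreated, 77.3, 73 and 66.4 CPM in CTRL BYL719, 0.277 and 0.272 CPM in NF1KO DMSO and 1.99, 2.12 and 1.78 CPM in NF1KO BYL719. The drug raised it in either line from very different levels, and the treated knockout was 3.83-fold below the untreated control (-1.94 ± 0.10, adjusted p = 3.1e-08). ID4, an inhibitor of helix-loop-helix factors, was at 17.7, 18.4 and 19.7 against 3.65, 2.32 and 2.35 CPM (-2.74 ± 0.15). Of 30 tested matrix genes 8 were higher, 13 lower and 14 held. TIMP3, a metalloproteinase inhibitor, was at 2.28, 2.68 and 2.62 CPM untreated, 25.8, 29.8 and 30.9 CPM in CTRL BYL719, 7.25 and 7.83 CPM in NF1KO DMSO and 39.6, 43.3 and 41.8 CPM in NF1KO BYL719. The 4 groups did not overlap (4.04 ± 0.10, adjusted p = 1.32e-10). The integrin subunits ITGB6 and ITGB8 were higher (3.36 and 3.42), COL1A1 was lower (-1.42) and ITGB1 was held (-0.08).

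Keratins, which BYL719 raised in CTRL cells (13 of 15 higher, median 1.84), were less changed here, with 5 higher, 2 lower and 5 held (median 0.25). The 5 became 3 without CTRL DMSO replicate 2 or NF1KO BYL719 replicate 1. Tested directly, 12 of the 15 were lower in NF1KO than in CTRL cells under the drug (median -1.11). KRT23 differed most, at 8.23, 9.28 and 10.2 CPM untreated and 48.6, 49.3 and 52.1 CPM in the treated knockout, above the 37.6 to 44.2 CPM of CTRL BYL719 (2.44 ± 0.10, adjusted p = 4.89e-09). KRT4 was at 1.68, 1.28 and 1.26 against 2.88, 2.15 and 2.02 CPM (0.74 ± 0.19), with 20.3 to 27.9 CPM in CTRL BYL719. In the interferon and antigen presentation list 5 of 28 tested were higher, near the 18% of all genes, 2 were lower and 14 held. Without NF1KO BYL719 replicate 1, 2 were higher, and in a fit of the 6 compared libraries alone 10 were. IRF1 was higher (0.82), DDX58, the RNA sensor RIG-I, was lower (-0.80), and TAP2 was held (-0.14).

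**Figure D5:**
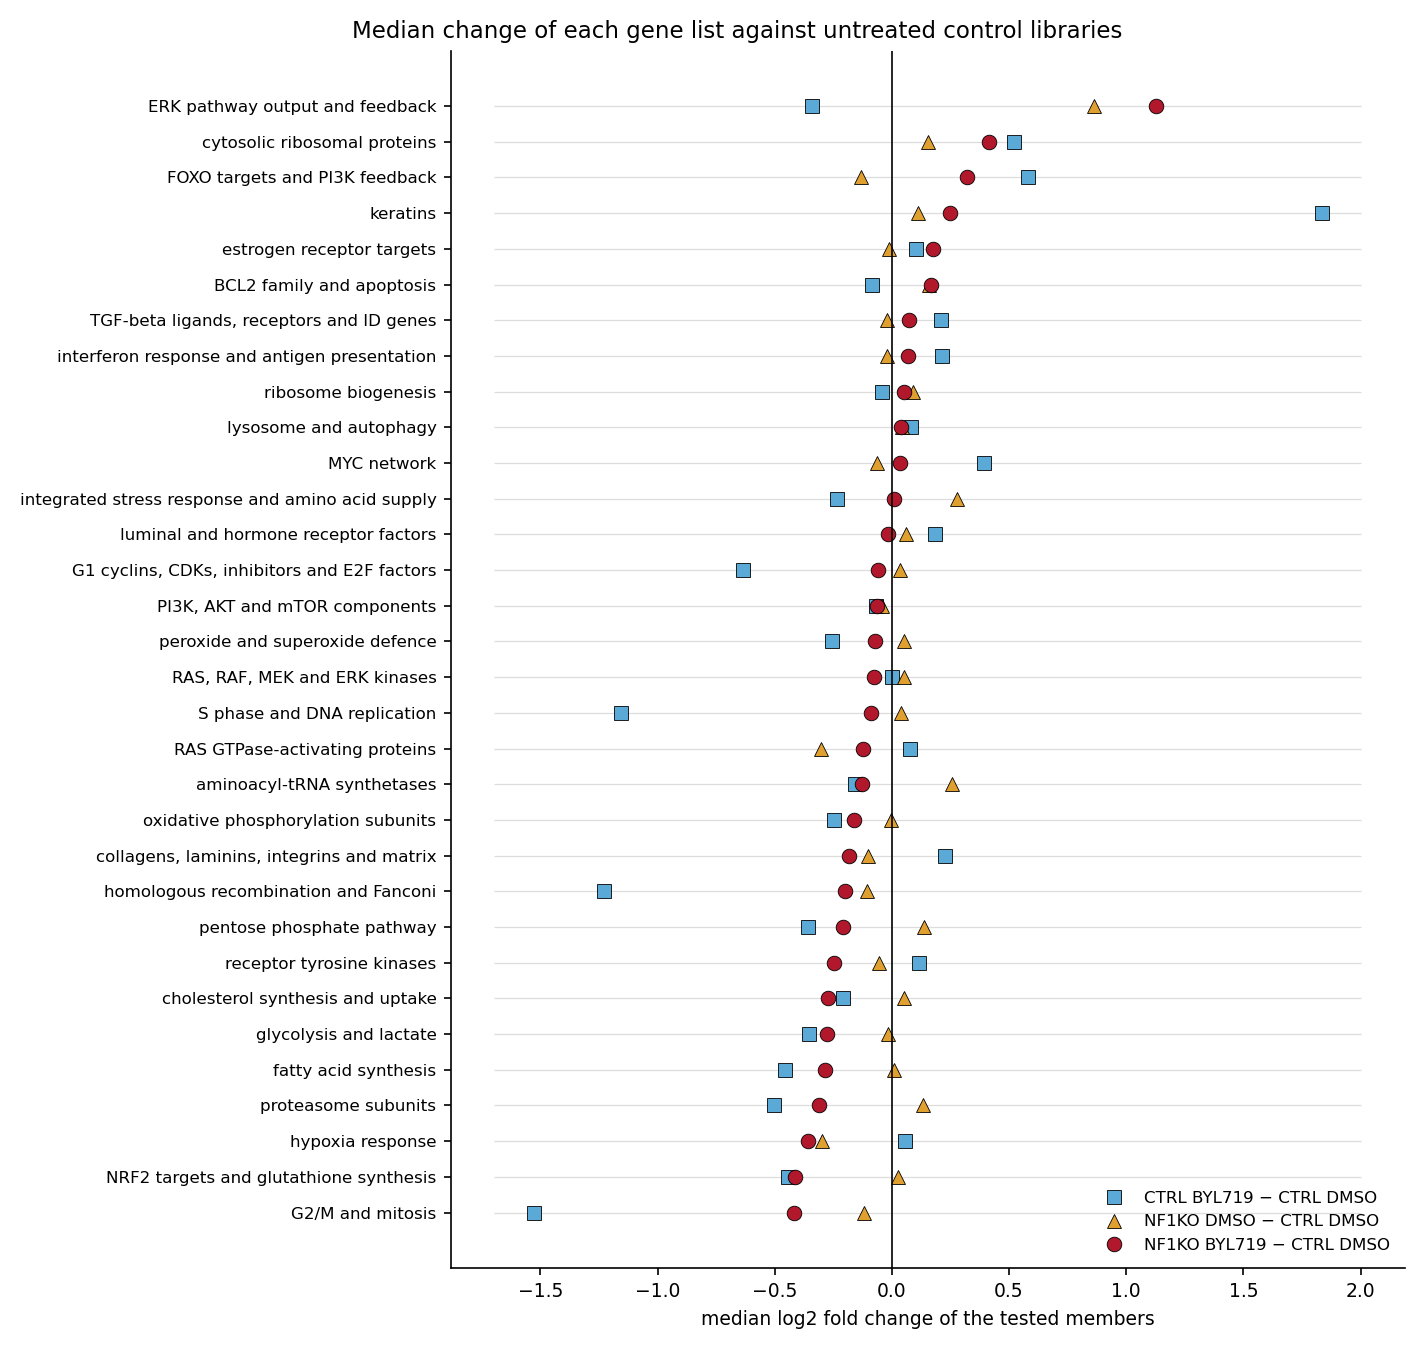
Median log2 fold change of each gene list for NF1KO BYL719, CTRL BYL719 and NF1KO DMSO, each against the same CTRL DMSO libraries. S phase genes have medians of -0.09, -1.16 and 0.04 in that order and ERK output genes 1.13, -0.34 and 0.86.

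The 10 largest rises among genes with a mean of at least 2 log2 CPM were AOC1, DOK7, NDP, CLSTN2, PRDM1, KCNE4, PHLDB2, TIMP3, MMP16 and LRP2, with log2 fold changes from 5.59 down to 3.89. AOC1, a diamine oxidase, was at 0.825, 1.11 and 1.24 against 53.2, 47.8 and 51.8 CPM (5.59 ± 0.18, adjusted p = 7.94e-10). NF1KO DMSO had 42.8 and 44.7 CPM of it. PRDM1, the repressor BLIMP1, was at 0.979, 1.35 and 1.19 against 33.4, 34.2 and 31.5 CPM, above the 18.9 and 19 CPM of NF1KO DMSO (4.82 ± 0.14). The largest falls after NF1 included VCAN, PHACTR1, TENM3, GNG11, SPTB, ID4, GFRA1 and SOWAHA, from -4.47 to -2.45. VCAN, the matrix proteoglycan versican, was at 584, 438 and 490 against 24.2, 23.2 and 20.9 CPM (-4.47 ± 0.17, adjusted p = 3.41e-09). GFRA1, a receptor for GDNF, was at 94.3, 97.7 and 108 against 16.3, 14.8 and 14.9 CPM (-2.71 ± 0.07). Its level in NF1KO DMSO was lower still, at 6.85 and 6.81 CPM. PHACTR1, TENM3 and SPTB overlap other genes, and their values are less certain.

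Some genes that changed in a single step were held within 1.5-fold of the untreated level in the drug-treated knockout. They were picked by that pattern, so their values are a description. Among held genes with the largest BYL719 change in CTRL cells was IGFBP5, an IGF-binding protein, at 955, 989 and 1040 CPM untreated, 3810, 4230 and 4280 CPM in CTRL BYL719, 510 and 461 CPM in NF1KO DMSO and 955, 1190 and 1030 CPM in NF1KO BYL719. The last group overlapped the first (0.09 ± 0.09). CCN1, a matricellular protein, was at 22.6, 24 and 23.8 CPM untreated, 91.7, 86 and 83.9 CPM in CTRL BYL719 and 25.2, 22.1 and 26.9 CPM in the treated knockout (0.08 ± 0.08). The others were GPRC5A, SAMD4A, GASK1B, KRT80, CDKN3, RND3, CACNG4 and PLK1. Among held genes with the largest line difference in DMSO was OSGIN1, an oxidative stress response gene, at 37.3, 40.2 and 45.5 CPM untreated, 78.8 and 90 CPM in NF1KO DMSO and 36.9, 42.4 and 51.6 CPM in NF1KO BYL719. It overlapped the untreated control (0.09 ± 0.12). MAML2, a Notch coactivator, was at 3.9, 3.57 and 3.73 CPM untreated, 1.61 and 1.41 CPM in NF1KO DMSO and 4.3, 4.09 and 3.55 CPM in NF1KO BYL719 (0.09 ± 0.11). The others were MEGF6, EBF4, CADM1, EPHA4, PCP4, CRIM1, FYB2 and ADGRL3. Of the genes named here, EBF4, PCP4, CRIM1, FYB2 and RND3 were not held in at least 1 fit that left out a library. Held genes can be called as well, for example KRT80 (higher, 0.25) and PLK1 and EPHA4 (both lower).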

How the data were processed

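RNA-seq of T47D cells was measured with a stranded poly(A) kit and single reads of 76 bases, per the labels' protocols. The authors deposited whole-number counts per gene for 11 libraries in 1 table. NF1KO DMSO replicate 1 is not analysed here. The submitters' processing notes name the build hg38, STAR 2.5.2a, SAMtools 1.7, Picard 2.9.2 and edgeR. The counting tool, its strand setting and its annotation are not given in the sources used here, so reads of overlapping genes cannot be told apart. Gene coordinates and promoters are RefSeq's for GRCh38.p14, matched by Entrez identifier (99.6% matched).

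Genes were filtered by edgeR's filterByExpr, scaled by TMM and fitted with edgeR 4.0.16 (glmQLFit, glmQLFTest; R 4.3.3) in 1 model of 4 groups with 7 residual degrees of freedom. Benjamini-Hochberg adjustment covered 16081 genes, with calls under 0.05. The SE is the log2 fold change over the square root of F. CPM use TMM library sizes. The contrast of NF1KO against CTRL under BYL719 was added after the values were seen.

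Members and gene lists were chosen with earlier results of these data known. The text names NF1, the 10 largest rises and 10 largest falls without overlap between libraries, up to 5 members per list by adjusted p, up to 3 held members by narrowest interval, and the 10 held genes with the largest change in either single step. ETV4, EGR1, CDT1, MCM3, PCNA, CENPE, CENPF, MKI67, VEGFA, ADM and NDRG1 were added after their values were seen. A few genes that the rule names are not reported here.

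The fit was tested on simulated data, with 200 of 15840 genes changed: 99% of 2-fold and 84% of 1.5-fold changes were called, and 5.67% of calls were false. Of unchanged genes 80.1% were held, and of the 2-fold changes 0 were. Changes were placed only in genes above a minimum level. The simulated spread followed the fitted trend, no library stood apart, and far fewer genes changed than were called here. The shares may therefore be better than in the data. Same-numbered CTRL DMSO and NF1KO BYL719 libraries did not deviate together (correlations 0.08, -0.12 and 0.12), and the main fit did not use replicate numbers as pairs. That check did not cover the other groups of the fit. Replicate 1 stood apart in both CTRL groups, and whether its deviation was shared between them was not tested. Counts with the replicate number as a block are given below. The alternatives changed the scaling (RLE, upper quartile), the filter (none, or 1 CPM or more in 3 or more libraries), the tool (limma-voom from limma 3.58.1, DESeq2 1.42.0) and the libraries (6 compared only, or each left out), or added the replicate number as a block.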

Additional observations from a re-analysis of the deposited data

How the results depend on the processing

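Among the named genes followed through the alternatives, none that was called changed sign. Between 79% and 99.9% of the 5605 calls were kept per alternative, with 0 opposite calls. List counts and list medians were checked for size and not for direction. Leaving out 1 library gave 2337 to 2628 higher, 2166 to 2358 lower and 8340 to 9190 held genes. A filter of at least 1 CPM left 474 genes more than 2-fold higher and 295 lower, from fewer genes tested, and gave no value for the endothelial markers.

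With the replicate number as a block, 3730 genes were higher and 3578 lower. In that fit 9 G1 genes, 8 S phase genes, 10 recombination genes, 22 respiratory chain genes and 7 tRNA synthetases were lower, and 6 ribosome biogenesis, 56 ribosomal protein and 11 interferon genes were higher. In the 6 compared libraries alone 3 S phase genes and 2 tRNA synthetases were lower and 10 interferon genes higher. With the replicate block added there, 9 recombination genes and 2 tRNA synthetases were lower, and 55 ribosomal protein and 12 interferon genes were higher. With no filter, 1 ribosome biogenesis gene was higher.

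When 1 library was left out, the lower counts ran from 2 to 4 (G1), 2 to 5 (S phase), 2 to 4 (recombination), 3 to 5 (pentose phosphate), 6 to 18 (respiratory chain), 2 to 7 (tRNA synthetases) and 8 to 15 (cholesterol). The higher counts ran from 3 to 6 (keratins), 0 to 3 (ribosome biogenesis), 14 to 36 (ribosomal proteins) and 2 to 5 (interferon). The cause of these movements was not tested. Where an arm kept 2 libraries, the spread was shared by all groups. Depth limits low genes such as EGR1 and PECAM1.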

Other observations

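A stretch of chromosome 7 (chr7:90119400-117230176 of GRCh38.p14), picked after the values were seen, held 191 tested genes. Of these, 120 were lower and 6 higher in NF1KO BYL719 than in CTRL DMSO, against 16.9% lower and 18% higher over all genes. The fold change was below 0 for 168 of them, and the median log2 fold change was -0.47, against -0.01 over all genes. The same genes had a median of -0.48 in NF1KO DMSO against CTRL DMSO, a contrast that shares the control libraries. GNG11, MET, MCM7 and EPHB4 lie in the stretch, so the S phase gene with the largest fall is one of its members. GNG11, a G protein gamma subunit, was at 134, 136 and 132 CPM in CTRL DMSO and 20.7, 16.7 and 21.2 CPM in NF1KO BYL719 (-2.78 ± 0.11, edgeR quasi-likelihood adjusted p = 3.68e-09).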
